A study of Mus musculus with 6 samples.

Results

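The 42 genes described here mark or govern blood and lymphatic endothelial cells, which line vessels. They were chosen by name, as a list of endothelial genes, by a rule that used no measured value but was made with earlier results of these data known. All 42 had at least 1 probe on the array, 13 had 2 probes, and 41 entered the test among 25777 genes and unnamed transcripts, of which 15772 had a symbol. The remaining gene, Prox1, was too dim to enter. RNA came from the non-adipocyte cells of mesenteric fat, called its stromal vascular fraction, which collagenase had released and from which red cells had been lysed. All mice were male C57BL/6JHamSlc-ob/ob animals, which carry a mutant leptin gene and are obese, so no lean animals are compared. In the propolis group, mice received Brazilian propolis ethanol extract, a bee product, by intraperitoneal injection over 12 weeks, with 2 injections of 100 mg/kg each week. In the vehicle group, they received a solution with a low concentration of DMSO and ethanol over the same 12 weeks. Each group had 3 samples, called biological replicates, with no statement of the age of the mice or of how many mice made up a sample.

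As background, endothelial cells hold together through VE-cadherin, claudin and other junction proteins and carry their identity through ETS and SOX transcription factors. Vascular endothelial growth factors (VEGFs) act through receptor tyrosine kinases on these cells, angiopoietins act through the receptor TEK, and Notch ligands and ephrins separate arterial from venous and tip from stalk cells. In adipose tissue, capillary endothelium also passes fatty acids from the blood to adipocytes. Lymphatic endothelium depends on the transcription factor PROX1 and on VEGF-C signalling through FLT4.

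The promoters of these genes were read for ETS motifs, since ERG, FLI1 and ETS1 on the list bind such sites. RefSeq promoters of the mouse build GRCm38.p6 were available for 24 of the 42 genes, with 29 start sites, and the 250 bases before each start were searched. Egfl7, Madcam1 and Pdpn are shown because they had an unadjusted p under 0.05 and a window outside their own annotated gene. Each is written 5′ to 3′ on the gene's strand, and capitals mark AGGAAG or CGGAAG on either strand, so that CTTCCT is AGGAAG on the other strand. Egfl7 is on the plus strand at chr2:26580833-26581082, Madcam1 on the plus strand at chr10:79664309-79664558 and Pdpn on the minus strand at chr4:143299565-143299814.
Egfl7: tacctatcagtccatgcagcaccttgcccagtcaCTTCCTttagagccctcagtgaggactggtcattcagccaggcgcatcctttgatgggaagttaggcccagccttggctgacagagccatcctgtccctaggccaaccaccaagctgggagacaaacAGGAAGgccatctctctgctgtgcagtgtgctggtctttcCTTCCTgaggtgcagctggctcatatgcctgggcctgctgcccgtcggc
Madcam1: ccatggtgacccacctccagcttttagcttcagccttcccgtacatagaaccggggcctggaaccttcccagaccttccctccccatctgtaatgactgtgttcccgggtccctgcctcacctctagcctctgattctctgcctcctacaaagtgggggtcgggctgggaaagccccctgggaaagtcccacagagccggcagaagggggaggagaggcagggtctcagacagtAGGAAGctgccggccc
Pdpn: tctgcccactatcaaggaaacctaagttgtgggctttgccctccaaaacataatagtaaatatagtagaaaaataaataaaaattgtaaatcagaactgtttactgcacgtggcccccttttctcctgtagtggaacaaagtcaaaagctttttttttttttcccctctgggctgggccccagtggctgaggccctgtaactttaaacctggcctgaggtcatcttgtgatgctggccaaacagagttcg

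Egfl7 held 3 matches, which began 216, 89 and 49 bases before the start, Madcam1 held 1, which began 16 bases before it, and Pdpn held 0. Such matches were common. They were present in 41.4% of the 29 promoters of the list, against 39.2% of all 32851 promoters. For SOX motifs (ACAATG or ACAAAG) the shares were 27.6% and 25.2%, for the KLF motif (CACACCC) 6.90% and 6.93%, and for the Notch motif (GTGGGAA) 6.90% and 5.42%. Each kind of motif was searched on its own on both strands, and a match describes letters in the window and not a bound site.

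Values are log2 fluorescence intensities relative to the 75th percentile of each array, in the order of replicates 1, 2 and 3. A difference is propolis minus vehicle with its standard error, SD refers to 3 arrays, and a level on one probe cannot be set against the level of another gene. Slide 1 carried propolis 1, propolis 2, vehicle 1 and vehicle 2, and slide 2 carried propolis 3 and vehicle 3. The arrays correlated with each other at 0.940 to 0.989 over genes, and 61.1% to 66.7% of 59305 spots per array stood well above background. RNA of neighbouring organs was high on single arrays. The 5 pancreatic acinar genes measured averaged 4.78 on vehicle 2, against -3.60 to -2.56 on the other 5 arrays. The 7 intestinal epithelial genes averaged 4.69 on vehicle 3, against -3.50 to -0.49 on the other 5 arrays. Both arrays belong to the vehicle group. Without both, the median difference of the endothelial genes was -0.84, against -0.78 with all 6 arrays, and that of Angpt1 was 1.33, against 1.34. That smaller fit leaves vehicle 1 alone in its group, so only its differences are given here. No conclusion is drawn from its p-values.

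Endothelial RNA was measured on every array. Of the 41 genes tested, 39 stood well above background on all 6 arrays, and the exceptions were Sele and Reln. A set of 12 pan-endothelial genes among them (Pecam1, Cdh5, Tie1, Tek, Esam, Egfl7, Cldn5, Emcn, Erg, Robo4, Clec14a and Ptprb) averaged 1.35, 0.76 and 2.02 on propolis arrays, against 2.25, 1.81 and 2.53 on vehicle arrays. The lowest of these averages was on propolis 2, and the groups overlapped, since propolis 3 was above vehicle 2. Within each group, replicate 2 was lowest and replicate 3 highest. The difference of the averages was -0.82. In RNA from a mixed cell suspension, fewer endothelial cells and less of these RNAs per cell cannot be told apart.

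Most of the endothelial genes had lower means after propolis, and 1 gene rose. Lower means were found for 35 of the 41 genes, where 50.4% of all genes tested had a lower mean. The median difference of the 41 genes was -0.78, against -0.0041 over all genes tested. At an adjusted p under 0.05, Angpt1 rose and 0 of the 41 fell by limma. Of all genes 0.834% passed, 0.722% that rose and 0.113% that fell. At an unadjusted p under 0.05, 11 of the 41 were lower and 2 higher, against 4.48% lower and 7.24% higher of all genes. The groups did not overlap for 7 genes that were lower and 2 that were higher, against 6.62% and 10.8% of all genes. Without propolis 1, 2 or 3 the count of 11 lower genes moved to 5, 3 and 20 (2.80%, 3.84% and 9.90% of all genes). Without vehicle 1, 2 or 3 it moved to 3, 15 and 4 (2.54%, 3.12% and 6.50%). With arrays weighted by their quality, limma called 23 of the 41, of which 21 were lower, against 12.5% of all genes called and 6.04% called lower.

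**Figure D1:**
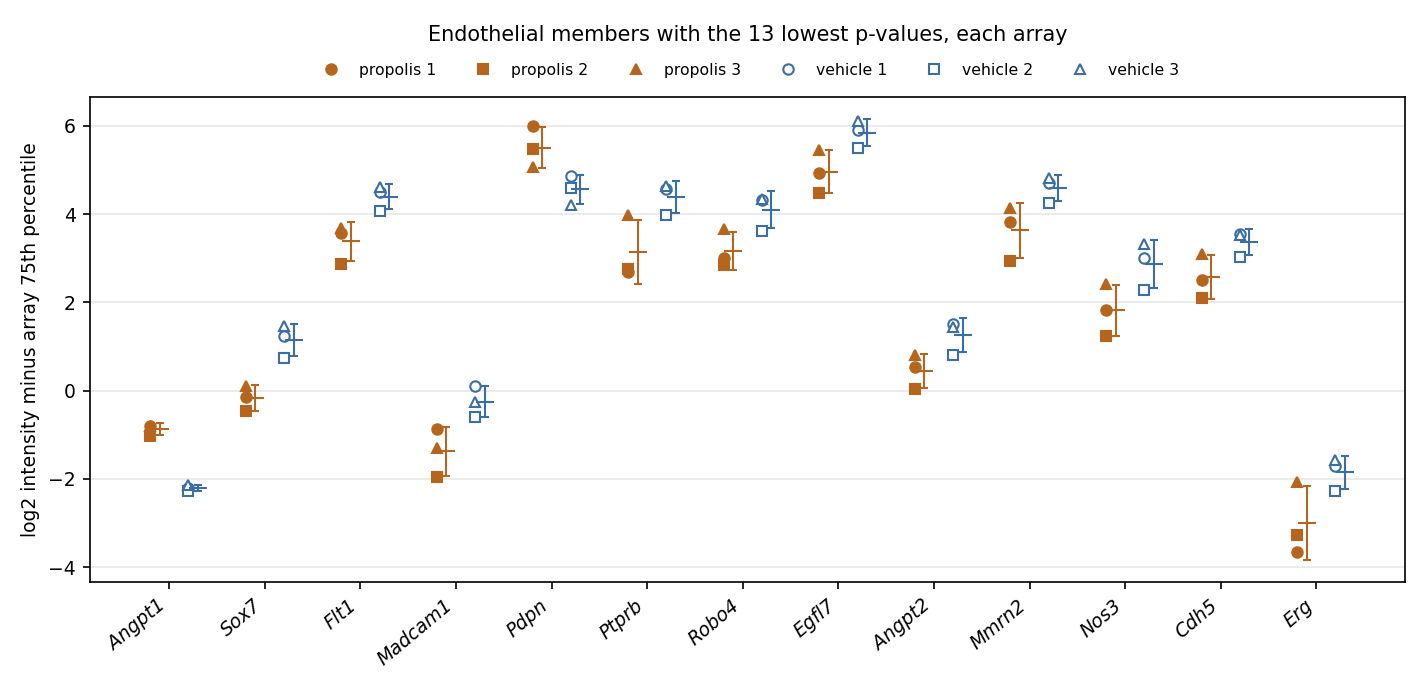
Log2 intensity relative to the array's 75th percentile (vertical axis) of the 13 endothelial genes with an unadjusted p under 0.05, for each propolis array (filled, left) and each vehicle array (open, right), with the group mean and SD (bars, n = 3). Angpt1 and Pdpn lie higher on the propolis arrays, and the other 11 genes have lower propolis means.

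Angpt1 encodes angiopoietin 1, the ligand that activates TEK and is made largely by mural and stromal cells. It was at -0.79, -1.03 and -0.80 on propolis arrays, against -2.21, -2.28 and -2.14 on vehicle arrays. Propolis arrays all lay above vehicle arrays, and the gap between the groups was larger than the spread within either. Angpt1 was 2.52-fold higher after propolis, a difference of 1.34 ± 0.16 (adjusted p = 0.0299). The difference was 1.33 on slide 1 and 1.35 on slide 2. With 1 array left out at a time it ran from 1.29 to 1.42, and the adjusted p ran from 0.0649 to 0.158, so the gene passed in 0 of these 6 settings. Without the filter on dim probes its adjusted p was 0.0581, and on the slide 1 arrays alone 0.0882.

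Angpt2 encodes angiopoietin 2, which endothelial cells store and which mostly opposes angiopoietin 1 at TEK. Its level was 0.53, 0.037 and 0.80 on propolis arrays, against 1.51, 0.81 and 1.45 on vehicle arrays. Every propolis array was below every vehicle array, though propolis 3 and vehicle 2 nearly met, and the difference was -0.80 ± 0.29 (adjusted p = 0.359). The difference between the log2 values of Angpt2 and Angpt1 on the same array was 1.32, 1.07 and 1.60 on propolis arrays, against 3.72, 3.09 and 3.59 on vehicle arrays. This quantity differed by -2.14 between the groups, with no overlap. Since Angpt1 was higher and Angpt2 lower on every propolis array than on every vehicle array, this separation was fixed in advance. An exact 2-sided permutation test could therefore give only p = 0.1, the smallest that its 20 arrangements allow, and it adds no support. Both genes were chosen for this pair with their own values known.

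The receptors of this system did not pass. Tek, the angiopoietin receptor, was at -0.015, -0.98 and 0.68 on propolis arrays, against 0.43, 0.55 and 1.29 on vehicle arrays. Propolis 3 lay above vehicle 1 and vehicle 2, so the groups overlapped, and the difference was -0.86 (adjusted p = 0.565). Tie1, the related receptor that modulates TEK, differed by -0.85 (adjusted p = 0.596), also with overlapping groups.

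Markers of mural and mesenchymal cells, which also make Angpt1, did not share a direction. The 10 pericyte and smooth muscle genes averaged 1.22, 1.56 and 2.37 on propolis arrays, against 1.76, 1.17 and 2.33 on vehicle arrays, with 5 higher and 5 lower means. Among them Pdgfrb, the platelet-derived growth factor receptor of mural and stromal cells, differed by 0.47 (adjusted p = 0.403), with no overlap. Rgs5, a pericyte regulator of G protein signalling, differed by -0.77 (adjusted p = 0.421). The 8 fibroblast and progenitor genes averaged 5.90, 5.98 and 6.16 on propolis arrays, against 5.87, 5.98 and 6.00 on vehicle arrays. Their means were higher for 3 and lower for 5. The collagen genes Col1a1 and Col3a1 of this list were higher by 0.62 and 0.49 (adjusted p = 0.313 and 0.384), both with no overlap.

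Mesothelial genes, markers of the cells that line the peritoneum, were higher beside Angpt1 and Pdpn. Of 10 listed, 9 were measured, and their average was 2.06, 1.51 and 2.42 on propolis arrays, against 0.90, -0.37 and 1.30 on vehicle arrays, with no overlap. The keratin genes Krt19 and Krt8 of this list were at 5.24 and 4.74 on vehicle 3, where intestinal genes were high. On the other vehicle arrays they were at -1.96 to 1.76. Means were higher for 8 of the 9, and the mesothelial transcription factor genes Bnc1 and Wt1 rose. Bnc1 differed by 2.87 (adjusted p = 0.0299) and Wt1 by 1.98 (adjusted p = 0.0320). Each array was also left out in turn, and the adjusted p then ran from 0.0448 to 0.126 for Bnc1, past the threshold once in 6, and from 0.0575 to 0.144 for Wt1, never past it. The part of mesothelial RNA in the differences of Angpt1 and Pdpn was not tested.

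Among junction and surface genes, all 13 had lower means after propolis, and 0 passed adjustment. Their differences ran from -1.25 to -0.26, with a median of -0.80. Where 4.48% of all genes were lower at an unadjusted p under 0.05, 5 of the 13 were. These were Ptprb, Robo4, Egfl7, Mmrn2 and Cdh5. The lowest of the 6 arrays was propolis 2 for 12 of the 13 genes, the exception being Ptprb.

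Egfl7, a secreted endothelial protein whose gene also hosts a vascular microRNA, did not overlap between the groups. It was at 4.94, 4.48 and 5.45 on propolis arrays, against 5.91, 5.51 and 6.12 on vehicle arrays. Propolis 3 lay just below vehicle 2, and the difference was -0.89 ± 0.30 (adjusted p = 0.323). Ptprb encodes the endothelial phosphatase that restrains TEK and VE-cadherin signalling, and was at 2.68, 2.76 and 3.98 on propolis arrays, against 4.56, 3.97 and 4.64 on vehicle arrays. Propolis 3 reached the level of vehicle 2, so the groups overlapped by a small margin (difference -1.25, adjusted p = 0.292).

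Cdh5 encodes VE-cadherin, the adhesion molecule of endothelial junctions. Its level was 2.50, 2.11 and 3.10 on propolis arrays, against 3.56, 3.03 and 3.52 on vehicle arrays, and it differed by -0.80 (adjusted p = 0.383). Propolis 3 lay above vehicle 2. Robo4, an endothelial receptor of the roundabout family, was at 3.01, 2.85 and 3.66 on propolis arrays, against 4.33, 3.62 and 4.35 on vehicle arrays (difference -0.93, adjusted p = 0.313). Here too propolis 3 was above vehicle 2. Mmrn2, an extracellular matrix protein of endothelium, had 3.82, 2.94 and 4.14 on propolis arrays, against 4.70, 4.25 and 4.81 on vehicle arrays. The groups did not overlap, with propolis 3 closest to vehicle 2, and the difference was -0.95 (adjusted p = 0.362).

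The most widely used endothelial markers were less clearly separated. Pecam1, an adhesion molecule of endothelium, platelets and leukocytes, was at -0.16, -1.07 and 0.85 on propolis arrays, against 0.58, 0.30 and 1.13 on vehicle arrays. Propolis 2 was the lowest and vehicle 3 the highest array, propolis 3 was the second highest, and the difference was -0.80 (adjusted p = 0.639). Cldn5, the claudin of endothelial tight junctions, was at 3.96, 2.65 and 4.60 on propolis arrays, against 4.75, 4.28 and 5.24 on vehicle arrays (difference -1.02, adjusted p = 0.544). The groups overlapped through propolis 3.

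The other 6 genes of this role differed by -0.86 to -0.26, with adjusted p from 0.517 to 0.886. They were the Rap1 effector gene Rasip1 (-0.86), the junction genes Esam (-0.50) and Jam2 (-0.39), the sialomucin gene Emcn (-0.50), the lectin-like gene Clec14a (-0.30) and the diaphragm protein gene Plvap (-0.26). Clec14a turned to 0.069 and Plvap to 0.17 when propolis 2 was left out, and Plvap to 0.059 without vehicle 3.

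**Figure D2:**
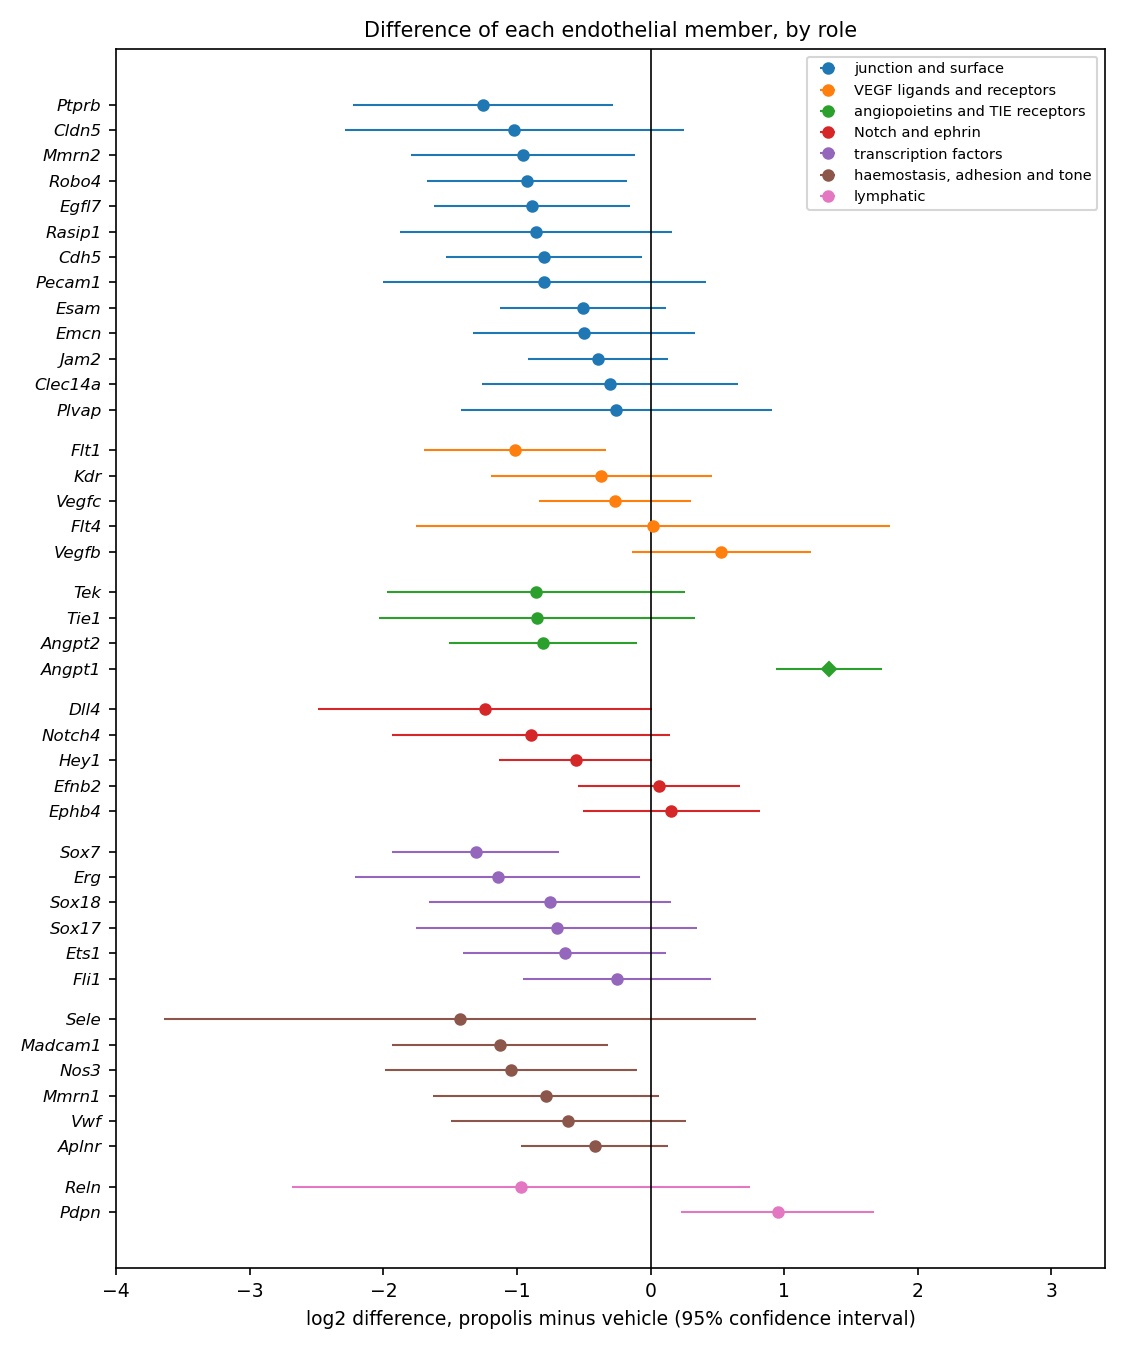
Difference of each of the 41 endothelial genes on the log2 scale, propolis minus vehicle (horizontal axis), with its 95% confidence interval from limma, grouped and coloured by role. The diamond marks Angpt1, the gene that passed adjustment, and 35 of the 41 points lie left of 0.

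Among VEGF ligands and receptors, Flt1 was lowest relative to vehicle. Flt1 encodes a VEGF receptor that also acts as a decoy, and was at 3.58, 2.88 and 3.70 on propolis arrays, against 4.50, 4.08 and 4.62 on vehicle arrays. The groups did not overlap, and the difference of -1.02 ± 0.28 had an adjusted p of 0.218. The main signalling receptor, Kdr, was at 3.25, 4.31 and 4.07 on propolis arrays, against 4.52, 4.41 and 3.81 on vehicle arrays. Its groups overlapped, with propolis 1 as the lowest array and propolis 2 close to vehicle 2. Kdr differed by -0.37 (adjusted p = 0.756), with -0.69 on slide 1 and 0.26 on slide 2. A second, dimmer Kdr probe differed by -0.55, with no overlap.

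The 2 ligands went different ways without passing. Vegfb, which acts through FLT1 and is linked to fatty acid uptake by endothelium, was at 0.82, 0.95 and 1.42 on propolis arrays, against 0.24, 0.37 and 0.99 on vehicle arrays. Its mean was higher by 0.53 (adjusted p = 0.551) with overlapping groups, since vehicle 3 exceeded propolis 1 and propolis 2. Vegfc, the lymphatic growth factor, was at 1.76, 1.85 and 2.24 on propolis arrays, against 2.04, 2.03 and 2.57 on vehicle arrays, and differed by -0.27 (adjusted p = 0.746). Propolis 3 was above 2 of the 3 vehicle arrays.

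Notch and ephrin genes held 0 with an unadjusted p under 0.05, and their median difference was -0.56. Dll4, the tip-cell Notch ligand, was at -3.24, -2.97 and -1.37 on propolis arrays, against -1.09, -1.75 and -1.03 on vehicle arrays. Propolis 1 and propolis 2 were well below the other 4 arrays, propolis 3 was above vehicle 2, and the difference was -1.24 (adjusted p = 0.432). Notch4, the endothelial Notch receptor, was at 0.58, 0.056 and 1.45 on propolis arrays, against 1.67, 1.02 and 2.08 on vehicle arrays (difference -0.90, adjusted p = 0.506). Its groups overlapped through propolis 3. Hey1, a transcriptional repressor induced by Notch, was at 1.19, 0.93 and 1.29 on propolis arrays, against 2.11, 1.46 and 1.53 on vehicle arrays. Its groups did not overlap, and it differed by -0.56 (adjusted p = 0.440).

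The ephrin pair had the smallest differences of this role, with intervals that span 0. Efnb2, the arterial ligand, was at 2.02, 1.43 and 1.37 on propolis arrays, against 1.65, 1.25 and 1.73 on vehicle arrays. The groups overlapped fully, and the difference was 0.066 (95% confidence interval -0.54 to 0.67). Ephb4, its venous receptor, differed by 0.16 (95% confidence interval -0.51 to 0.82). A dimmer second Ephb4 probe differed by -0.16, also with overlap. The second Efnb2 probe stood well above background on 1 of 3 propolis arrays and on all 3 vehicle arrays, so it gives no exact difference.

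All 6 transcription factor genes had lower means after propolis, with a median of -0.73. Sox7, a SOX factor of endothelial specification, was at -0.14, -0.47 and 0.11 on propolis arrays, against 1.23, 0.74 and 1.45 on vehicle arrays. Every propolis array lay below every vehicle array, with a clear gap between the groups. Sox7 was 2.48-fold lower, a difference of -1.31 ± 0.26, and came closest to the threshold of the genes with lower means (adjusted p = 0.0993). The difference was -1.29 on slide 1 and -1.35 on slide 2.

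Its relatives Sox17 and Sox18 were less clear. Sox17, an arterial SOX factor, was at 1.49, -0.067 and 1.10 on propolis arrays, against 1.73, 1.09 and 1.81 on vehicle arrays (difference -0.70, adjusted p = 0.630). The groups overlapped, and the lowest array was propolis 2. Sox18, which acts in both blood and lymphatic vessels, differed by -0.75 (adjusted p = 0.525), -0.54 on slide 1 and -1.19 on slide 2.

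Erg is the ETS factor most restricted to endothelium among the 3 on the list. It was at -3.66, -3.27 and -2.07 on propolis arrays, against -1.70, -2.28 and -1.58 on vehicle arrays, a difference of -1.15 (adjusted p = 0.390). Propolis 3 lay above vehicle 2. Fli1 and Ets1 are ETS factors shared with blood cells. Fli1 was at 2.77, 2.98 and 2.18 on propolis arrays, against 3.13, 3.07 and 2.48 on vehicle arrays (difference -0.25, adjusted p = 0.807), and the groups overlapped. Ets1 differed by -0.64 (adjusted p = 0.515), and its highest array was vehicle 2, where B and T cell genes were also highest.

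Leukocyte markers are given here beside Ets1, Fli1 and Pecam1, genes that blood cells share. The 7 B cell genes measured of 8 averaged -2.47, -1.97 and -1.50 on propolis arrays, against 0.20, 2.13 and -1.73 on vehicle arrays. All 6 T cell genes averaged 1.10, 1.54 and 1.87 on propolis arrays, against 2.35, 2.73 and 1.39 on vehicle arrays. Ptprc, the antigen common to leukocytes, differed by -0.45 (adjusted p = 0.465), with no overlap. On slide 2 the median difference was 0.24 for the B cell genes and 0.53 for the T cell genes, where Ets1 differed by -0.11, Fli1 by -0.29 and Pecam1 by -0.28. Among vehicle arrays the B and T cell averages were highest on vehicle 2, where Pecam1 was lowest.

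All 6 genes of haemostasis, adhesion and vascular tone had lower means, with a median of -0.91. Madcam1 encodes the addressin through which lymphocytes enter intestinal and mesenteric lymphoid tissue. Its values were -0.86, -1.96 and -1.31 on propolis arrays, against 0.11, -0.60 and -0.25 on vehicle arrays. The groups did not overlap, and the difference was -1.13 ± 0.33 (adjusted p = 0.250). A dimmer second probe gave -1.24, also without overlap. Nos3, the endothelial nitric oxide synthase gene, was at 1.82, 1.25 and 2.41 on propolis arrays, against 3.00, 2.28 and 3.33 on vehicle arrays. Propolis 3 was just above vehicle 2, and Nos3 differed by -1.04 (adjusted p = 0.375).

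Vwf, the von Willebrand factor gene of endothelium and platelets, was at 3.05, 2.71 and 3.74 on propolis arrays, against 3.84, 3.25 and 4.26 on vehicle arrays, and its groups overlapped (difference -0.62, adjusted p = 0.613). Mmrn1, the multimerin gene of platelets and lymphatic endothelium, differed by -0.78 (adjusted p = 0.465), and Aplnr, the apelin receptor gene, by -0.42 (adjusted p = 0.569). Platelet genes, 5 measured of 6, averaged -0.66, -1.67 and -0.81 on propolis arrays, against -0.72, -1.31 and -0.80 on vehicle arrays. Their average was lowest on propolis 2, and 2 of the 5 were themselves lowest there, where 12.9% of all genes were. Of the 41 endothelial genes 28 were lowest on that array, Vwf and Mmrn1 among them. The part of platelet RNA in the values of Vwf and Mmrn1 was not tested.

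Sele encodes E-selectin, which inflamed endothelium displays to leukocytes. It was at -4.17, -7.11 and -3.92 on propolis arrays, against -2.75, -4.50 and -3.67 on vehicle arrays, the widest range of the 41 genes. It stood well above background on 2 of 3 propolis arrays and on all 3 vehicle arrays, with propolis 2 below background. The difference was -1.42 (adjusted p = 0.646), with -2.01 on slide 1 and -0.25 on slide 2, and with propolis 2 below background neither the pooled nor the slide 1 value is exact.

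The lymphatic genes did not share a direction. Prox1, the defining transcription factor, had a probe well above background on 1 of 3 propolis arrays and 0 of 3 vehicle arrays, with means of -6.01 ± 0.57 after propolis and -6.39 ± 0.61 after vehicle (SD, n = 3 each). Flt4, the receptor for VEGF-C, was at -3.22, -4.66 and -2.13 on propolis arrays, against -3.47, -4.22 and -2.37 on vehicle arrays. The groups overlapped, propolis 2 and vehicle 2 being lowest, and the difference was 0.019, with a wide 95% confidence interval of -1.75 to 1.79. Reln, a secreted glycoprotein of lymphatic vessels and neurons, was at -4.80, -7.32 and -5.04 on propolis arrays, against -4.58, -5.42 and -4.25 on vehicle arrays. It was well above background on 2 arrays of each group and differed by -0.97 (adjusted p = 0.691).

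Pdpn encodes podoplanin, a surface sialomucin of lymphatic endothelium that mesothelial and fibroblastic stromal cells also carry. It was at 6.00, 5.47 and 5.06 on propolis arrays, against 4.86, 4.61 and 4.22 on vehicle arrays, and the groups did not overlap. Pdpn was 1.93-fold higher, a difference of 0.95 ± 0.30 (adjusted p = 0.284). A dimmer second probe gave 1.00 without overlap, and the difference was 1.00 on slide 1 and 0.84 on slide 2. Of 8 lymphatic genes outside the 42, 7 were measured, with 4 higher and 3 lower means and a median difference of 0.012. Among them Lyve1, the hyaluronan receptor of lymphatic endothelium and some macrophages, differed by -0.50 (adjusted p = 0.648). With its defining marker Prox1 at background, the part of lymphatic endothelium in these values was not tested.

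Other genes of the same pathways were read from the same fit. Of 72 further vascular genes, 70 were measured, and 1 rose and 0 fell, against 0.722% and 0.113% of all genes. Lower means were found for 51, with a median difference of -0.35, where 50.4% of all genes had a lower mean. An unadjusted p under 0.05 was reached by 17 that were lower and 5 that were higher, against 4.48% and 7.24% of all genes. Bmper, a secreted regulator of bone morphogenetic proteins, rose. It was at 6.08, 4.89 and 4.68 on propolis arrays, against 2.84, 2.31 and 2.14 on vehicle arrays, a 6.88-fold difference with no overlap (adjusted p = 0.0488). With 1 array left out at a time the adjusted p of Bmper ran from 0.0608 to 0.194. Vegfd, a lymphatic VEGF ligand that fat stroma also makes, was at 4.80, 4.30 and 4.21 on propolis arrays, against 3.31, 2.69 and 3.48 on vehicle arrays (difference 1.28, adjusted p = 0.129).

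The 8 capillary and fatty acid uptake genes all had lower means. Of these, 5 had an unadjusted p under 0.05, where 4.48% of all genes were lower at that level. Lpl, lipoprotein lipase, which acts at the capillary wall and is made by adipocytes, was at 5.45, 5.33 and 5.98 on propolis arrays, against 7.12, 6.69 and 6.89 on vehicle arrays (difference -1.32, adjusted p = 0.0796). The fatty acid translocase gene Cd36 differed by -1.21 (adjusted p = 0.210) and the water channel gene Aqp1 by -0.81 (adjusted p = 0.258). None of the groups of these 3 genes overlapped. Propolis 2 was the lowest array for all 8. Lpl is also 1 of the 5 adipocyte genes, and the other 4 averaged -1.56, -0.31 and -0.15 on propolis arrays, against -0.30, 0.59 and 0.95 on vehicle arrays, with overlap. Adipocytes are not part of the stromal vascular fraction by its definition, and the part of adipocyte RNA in the values of Lpl and Cd36 was not tested.

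Myct1, an endothelial membrane protein gene, differed by -1.25 (adjusted p = 0.0634) and Icam2, a constitutive endothelial and leukocyte adhesion molecule, by -1.14 (adjusted p = 0.138), both with lower propolis arrays and no overlap. With slide as a block Myct1 passed (adjusted p = 0.0312). The coagulation genes Tfpi, an inhibitor of tissue factor, and F8, coagulation factor VIII, were higher by 0.93 and 0.78 (adjusted p = 0.165 and 0.178). Vcam1, a vascular and mesenchymal adhesion molecule, was higher by 0.86 (adjusted p = 0.291). Among Notch genes outside the 42, the ligand genes Jag2 and Dll1 differed by -0.92 and -0.93. The hypoxia factor gene Epas1 differed by -0.69, the endothelial scavenger receptor gene Stab2 by -1.03 and Fut7, which builds selectin ligands, by -1.18. The highest adjusted p of these last 5 was 0.420.

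**Figure D3:**
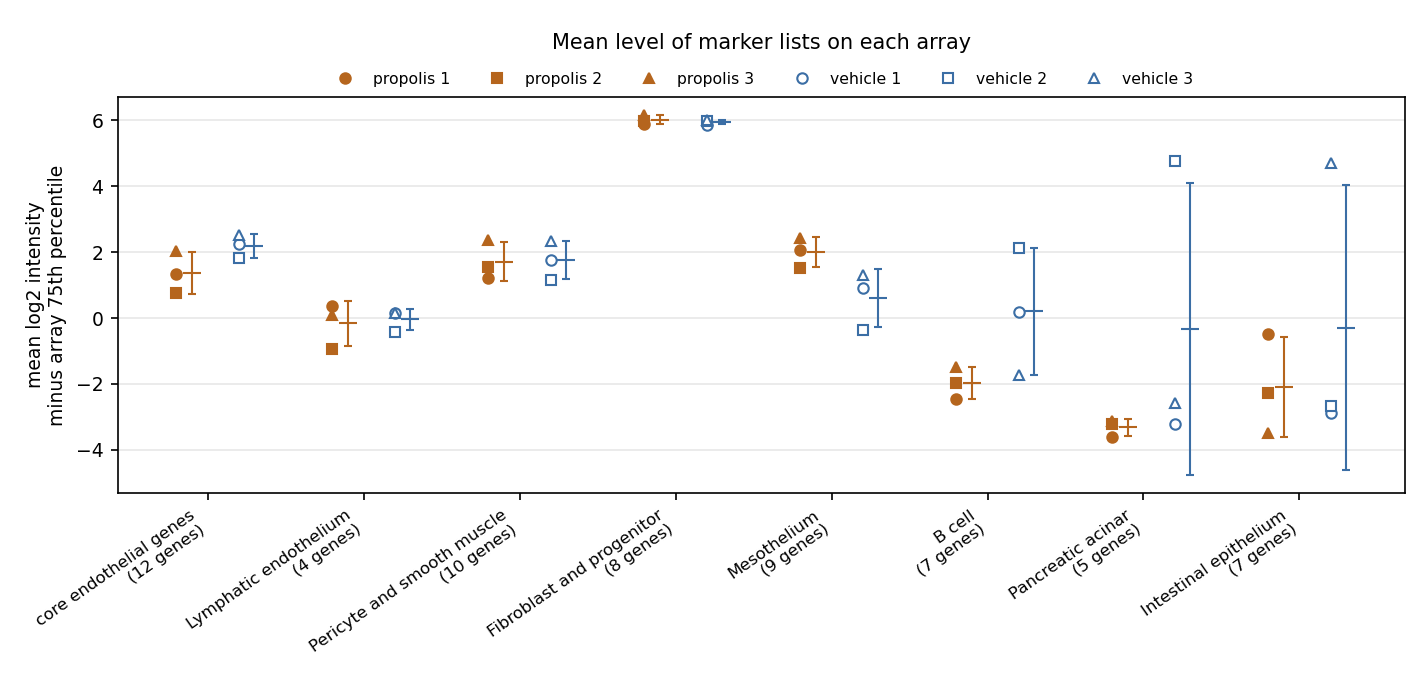
Mean log2 intensity relative to the array's 75th percentile (vertical axis) of the 12 core endothelial genes and of 7 marker lists, for each propolis array (filled, left) and vehicle array (open, right), with the group mean and SD (bars, n = 3). Mesothelial genes separate the groups, core endothelial genes overlap, and acinar and intestinal genes are each high on 1 vehicle array.

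The lowest and the highest values of many endothelial genes fell on the same arrays. Propolis 2 was the lowest of the 6 arrays for 28 of the 41 genes, where 12.9% of all genes were lowest there. The highest array was vehicle 3 for 26 of the 41 and vehicle 1 for 9, against 3838 and 3372 of all 25777 genes tested. Leaving out propolis 2 moved the median difference to -0.43, and it lay between -0.97 and -0.43 over the 6 settings that leave out 1 array. On slide 1 the median difference was -0.88 and on slide 2 -0.52. Both slides gave a lower value for 34 of the 41 genes and a higher one for 3, Angpt1, Pdpn and Vegfb, where 23.1% of all genes were lower and 30% higher on both. Slide 2 holds 1 array of each group and allows no test of its own. With slide as a block, limma called 1.21% of all genes at an adjusted p under 0.05 and still 1 of the 41, Angpt1 (adjusted p = 0.0312). Sox7 then had an adjusted p of 0.0573, and 19 of the 41 were lower at an unadjusted p under 0.05, against 6.86% of all genes.

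**Figure D4:**
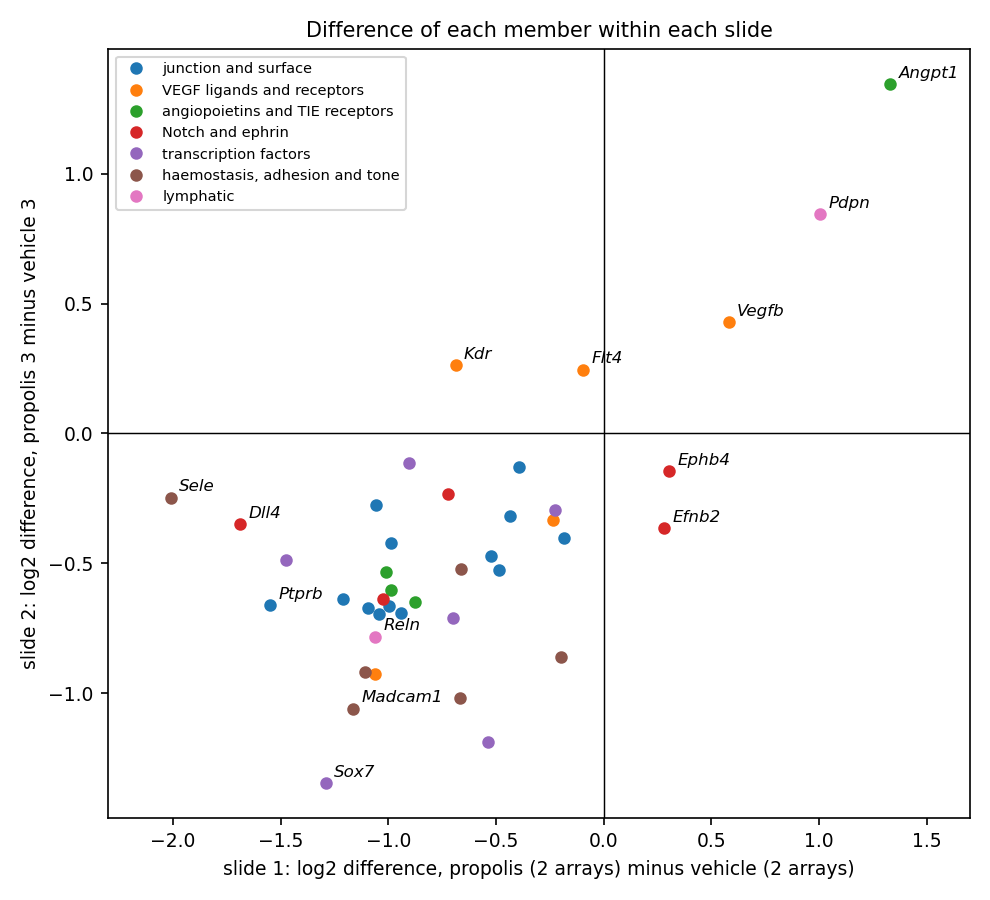
Difference of each of the 41 endothelial genes on slide 1 (horizontal axis, 2 propolis minus 2 vehicle arrays) and on slide 2 (vertical axis, propolis 3 minus vehicle 3), on the log2 scale, coloured by role. Most points lie in the lower left, with 34 of the 41 lower on both slides, and Angpt1, Pdpn and Vegfb are higher on both.

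To read each gene against the endothelial content of its own array, the mean of the 12 core genes was set to 0 on every array. This adds 0.82 to the difference of every gene, so that the median of all genes was 0.82, and a difference relative to that median is the same as before. Angpt1 was at -2.14, -1.79 and -2.82 on propolis arrays, against -4.46, -4.09 and -4.67 on vehicle arrays. It differed by 2.16 (adjusted p = 0.0330), or 1.34 above the median of all genes, and 2.12% of all genes passed. Pdpn differed by 1.77 (adjusted p = 0.144), or 0.95 above that median, and Vegfb by 1.35 (adjusted p = 0.222), or 0.53 above it. Sox7 differed by -0.49 (adjusted p = 0.445), which is -1.31 relative to the median of all genes. The median of the 41 genes was 0.036, or -0.78 relative to all genes, so their lower means were of about the size of the core genes' own difference. On the shifted scale 0 of the 41 were lower at an unadjusted p under 0.05, against 0.268% of all genes. Since 12 of the 41 set this scale, their values on it are not independent of it.

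Where tested genes had a second probe, it pointed the same way for 11 genes and the other way for Ephb4 and Efnb2. The second probes of Efnb2 and Erg stood well above background on 1 of 3 propolis arrays, and that of Clec14a on 2 of 3. Second probes without overlap between groups were lower for Clec14a, Kdr, Madcam1, Ptprb and Sox17 and higher for Pdpn. Over all genes tested, each on its brightest probe, 6.62% were lower and 10.8% higher without overlap. The second Ptprb probe differed by -1.49 and the second Sox17 probe by -0.79. For Clec14a it differed by -0.89, against -0.30 for the brighter probe, a value that is not exact with a propolis array near background.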

How the data were processed

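Per the file headers and the submitters' processing notes, Cy3-labelled cRNA was hybridised to Agilent mouse arrays and the images were quantified in Agilent Feature Extraction 10.7.3.1. Intensity values in the deposited per-array tables are linear and background-corrected. The deposited series table holds the authors' log2 values (array medians -3.95 to -3.61), which correlated with the log2 scanner signal at 0.999997 or more on every array, and served as an alternative only.

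The processed signal was turned to log2, non-uniform spots were left out, spots of a probe were averaged, and values were set relative to the 75th percentile of the array (an intensity of 459.4 to 729). Probes well above background on at least 3 of 6 arrays entered (34786 of 55681, of which 4 lacked a value), and the brightest stood for its gene. Symbols came from RefSeq accessions matched to GRCm38.p6, which named 27235 probes and left 28446 unnamed. The comparison used limma 3.58.1 (R 4.3.3; lmFit and eBayes, no block, prior degrees of freedom 2.36). P-values were adjusted by Benjamini-Hochberg over the 25777 genes and transcripts, with a threshold of 0.05. P-values measure the spread between these samples, since the labels do not state separate animals.

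The genes and lists were chosen with earlier results of these data known. All 42 are named, with values per array for those with an unadjusted p under 0.05, no overlap, a range above 3 or the best known of a role; of other lists, up to 3 genes of lowest p. Replicates of the same number deviated together at r = 0.036, 0.29 and 0.14 over all genes, against -0.31 to 0.21 for differing numbers. The labels state no pairing, so the main fit used none, and these values do not settle whether the numbers pair samples. No spot was saturated. The number of arrays limits the precision. The fit was also run on simulated data, with outcomes not given here. The simulated noise was independent for each gene, so it holds no shift shared by the genes of an array. Alternatives covered background correction, scaling, filter, probe rule, variance model, array weights, blocks and arrays left out. Background correction by normexp used median signals.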

Additional observations from a re-analysis of the deposited data

How the results depend on the processing

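Angpt1 was higher, and the median of the 41 genes was below that of all genes, in every setting tried. Genes of all kinds passing adjustment numbered 215, against 106 without the filter on dim probes and 3231 with array weights. The number was 0 on slide 1 alone, 546 on the core scale and 11 to 94 with 1 array left out. Of the 41 genes, 1 passed, against 0 without the filter and 23 with array weights. None of the 41 passed on slide 1 alone or in any setting with 1 array left out. The 11 genes lower at an unadjusted p under 0.05 (4.48% of all genes) became 31 with array weights (17.3% of all genes), 19 with slide as a block (6.86%), 4 without vehicle 2 and vehicle 3 together, 0 on the core scale and 3 to 20 with 1 array left out. The count without vehicle 2 and vehicle 3 together rests on vehicle 1 alone in its group, so no conclusion is drawn from it. The median difference, -0.78, was -1.22 with array weights and -0.97 to -0.43 with 1 array left out. The mean of the 12 core genes differed by -0.82, and by -1.14 to -0.51 with 1 array left out. With the replicate number as a block, 73 genes passed, 59 of them among the 215, with 0 of the 41 (Angpt1 adjusted p = 0.0703, Sox7 0.0725) and 27 of the 41 lower at an unadjusted p under 0.05 (6.42% of all genes); Wt1 also lost its call (adjusted p = 0.0926). Same-numbered samples deviated together at r = 0.036, 0.29 and 0.14, and samples of differing number at -0.31 to 0.21.

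The core scale adds 0.82 to every gene by its construction, which put the median of the 41 genes at 0.036 and 18 genes with lower means above 0, though these stayed -0.80 to -0.24 relative to the median of all genes. There Pecam1 was at 0.025, Cdh5 0.021, Esam 0.32, Kdr 0.45, Emcn 0.32, Vwf 0.20, Fli1 0.57, Sox17 0.12, Sox18 0.067, Ets1 0.18, Plvap 0.56, Aplnr 0.40, Jam2 0.43, Mmrn1 0.036, Clec14a 0.52, Hey1 0.26, Angpt2 0.018 and Vegfc 0.55, and of other genes Epas1 was at 0.13, Aqp1 0.0089, Rgs5 0.051 and S100b 0.21. Flt4 was at -0.014 with normexp, -0.65 with array weights, -0.095 on slide 1 alone and -0.59 to 0.68 with 1 array left out. Efnb2 was at -0.25 and Ephb4 at -0.0045 with all probes averaged. Efnb2 was at -0.079 with array weights, -0.037 without vehicle 2 and vehicle 3 together and -0.14 to 0.19 with 1 array left out. With 1 array left out, Plvap ran from -0.61 to 0.17, Clec14a from -0.62 to 0.069 and Ephb4 from -0.054 to 0.40. The causes were not tested. A probe near background limits Prox1, Reln and Sele.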
